A study of Homo sapiens with 12 samples.

Results

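Transcripts assembled by Cufflinks outside every RefSeq gene were taken from 4 libraries of the colorectal adenocarcinoma line HT-29. A transcript was a member where it overlapped no RefSeq transcript of the same library on either strand, spanned at least 200 bp and reached at least 1 FPKM (fragments scaled to transcript length and to the depth of the library, so a level per length). Of 268864 transcripts listed in the 4 libraries, 4538 met the rule: 1363 in parental DMSO, 932 in parental TBZ 4 h, 1297 in shMLKL DMSO and 946 in shMLKL TBZ 12 h. Overlapping intervals merged into 2301 loci on 24 chromosomes. The members were thus selected on their FPKM in these libraries, so every level and difference of a locus below is a description and has no test. Just inside the minimum were members near CAMSAP1, PCIF1 and POLR3D at 1.00010, 1.00017 and 1.00018 FPKM, and just outside it were transcripts near SNX29P2, CACNG4 and CYP4F35P at 0.99981, 0.99980 and 0.99938 FPKM. For length, members near CIC, MDM4 and SENP2 spanned 200, 201 and 204 bp, and transcripts near TIMM50, DGCR6 and LINC02405 missed the minimum at 199, 198 and 197 bp.

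RNA outside the gene models of an annotation can come from long non-coding RNA genes, from promoters that are read in both directions, from RNA polymerase that continues past the end of a gene, or from genes that the annotation in use did not list. Tumour necrosis factor binds its receptor and switches on NF-kB target genes. Where the inhibitor of apoptosis proteins and the caspases are blocked, the same receptor leads through RIPK1, RIPK3 and MLKL, the pseudokinase that breaks the plasma membrane, to necroptosis.

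The 4 groups of the first experiment had 1 library each: parental cells with DMSO, parental cells with TBZ for 4 h, cells with a short hairpin RNA against MLKL (shMLKL) with DMSO, and shMLKL cells with TBZ for 12 h. TBZ is TNFa at 20 ng/mL with BV6, an antagonist of the inhibitor of apoptosis proteins, at 2 uM and zVAD-fmk, a caspase inhibitor, at 30 uM. The second experiment, used here only for annotated genes beside the loci, had 2 libraries each of shMLKL cells and of cells with a hairpin against GFP (shGFP), with DMSO or with TBZ for 5 h. The labels do not say whether a hairpin line was 1 clone, nor how long DMSO was given. MLKL itself stood at 6.31, 6.16, 0.854 and 2.14 FPKM in the 4 libraries in the order given, so it was lower in both shMLKL libraries. Of 11 colorectal epithelial markers 8 or 9 reached 1 FPKM in each library, while CDX1 and CDX2 did not exceed 0.516 FPKM and VIL1 was listed at 0 in shMLKL TBZ 12 h. None of 7 fibroblast and endothelial markers reached 1 FPKM, the summed levels of that list were 0.039 to 1.06 FPKM, and the leukocyte marker PTPRC did not exceed 0.012 FPKM. Of 6 leukocyte markers 2 reached 1 FPKM, CD14 at up to 5.79 FPKM and LYZ at 625 to 1003 FPKM. In these bulk libraries fewer cells with an RNA and less of it per cell cannot be told apart. Coverage per FPKM, a measure of relative depth, was 6.74, 7.32, 7.44 and 8.18.

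Of the 2301 loci 268 held a spliced transcript, and these held 635 introns. No hg19 genome or sequence was used, so spliced loci were compared with GENCODE 29 (GRCh38) by intron length. An intron matched where a GENCODE transcript on the same strand had an intron of the identical length. That intron had to lie in the stretch spanned by the same flanking genes, with the flanking genes themselves included. Of 214 spliced loci whose flanks could be placed, 95 had a matched intron, 155 introns in all, and in 59 of them every intron matched. The matched genes were lincRNAs at 32 loci, protein-coding genes at 30, antisense RNAs at 20 and other types at the rest. For 69 of the 95 loci the matched gene was not among the RefSeq transcripts of the deposited lists. At 26 loci the matched gene was itself one of the flanking genes. Exon junctions of 5 matched genes that the results turn on are shown, from GENCODE 29 transcripts, 5′ to 3′ on the strand of the gene. Each line holds 50 bases on either side of the junction, and the capitals mark the 8 bases on either side.
MUC5AC, exons on both sides of a 257 bp intron: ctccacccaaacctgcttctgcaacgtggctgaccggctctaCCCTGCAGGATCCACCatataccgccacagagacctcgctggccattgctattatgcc
MUC5AC, exons on both sides of a 596 bp intron: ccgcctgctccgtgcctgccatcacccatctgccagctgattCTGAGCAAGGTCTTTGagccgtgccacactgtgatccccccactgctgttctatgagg
LINC01833, exons on both sides of a 15243 bp intron: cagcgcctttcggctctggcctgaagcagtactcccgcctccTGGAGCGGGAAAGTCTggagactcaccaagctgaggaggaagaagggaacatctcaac
SLC12A9-AS1, exons on both sides of a 14934 bp intron: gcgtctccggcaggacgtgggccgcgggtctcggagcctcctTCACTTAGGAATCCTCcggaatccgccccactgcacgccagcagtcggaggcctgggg
LINC02086, exons on both sides of a 3304 bp intron: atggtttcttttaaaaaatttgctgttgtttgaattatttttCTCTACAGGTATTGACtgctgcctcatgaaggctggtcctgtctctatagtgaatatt
AC068282.1, exons on both sides of an 8761 bp intron: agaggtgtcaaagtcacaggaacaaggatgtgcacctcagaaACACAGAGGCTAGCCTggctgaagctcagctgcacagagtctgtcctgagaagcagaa

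The spliced locus with the most matched introns was matched to MUC5AC, which encodes a secreted gel-forming mucin of airway and stomach epithelium. Its matched junctions lay at bases 14427 to 16747 of a GENCODE transcript of 17448 bases, so it held only a 3′ part of the gene. This locus, at chr11:1212760-1222355 (hg19) on the plus strand, lay 21940 bp upstream of MUC5B, and 17 of its 18 introns matched. Both TBZ libraries held it as 1 transcript of 19 exons, at 1.97 FPKM in parental TBZ 4 h and 3.17 FPKM in shMLKL TBZ 12 h. In parental DMSO it was cut into 4 fragments, and in shMLKL DMSO into 2. Adding up the FPKM of fragments gave 5.13 in parental DMSO and 3.77 in shMLKL DMSO, higher than in the TBZ libraries. A length-weighted FPKM, in which each fragment counts by its exon length over the exon length of the whole locus, gave 1.03, 1.97, 1.92 and 3.16 in the order parental DMSO, parental TBZ 4 h, shMLKL DMSO and shMLKL TBZ 12 h, lower in each DMSO library than in the TBZ library of the same cells. The direction at this locus therefore turned with the way fragments were added. For that reason the length-weighted value, an alternative added after the values were seen, is given below wherever it differs by more than 1.5 times from the sum.

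**Figure D1:**
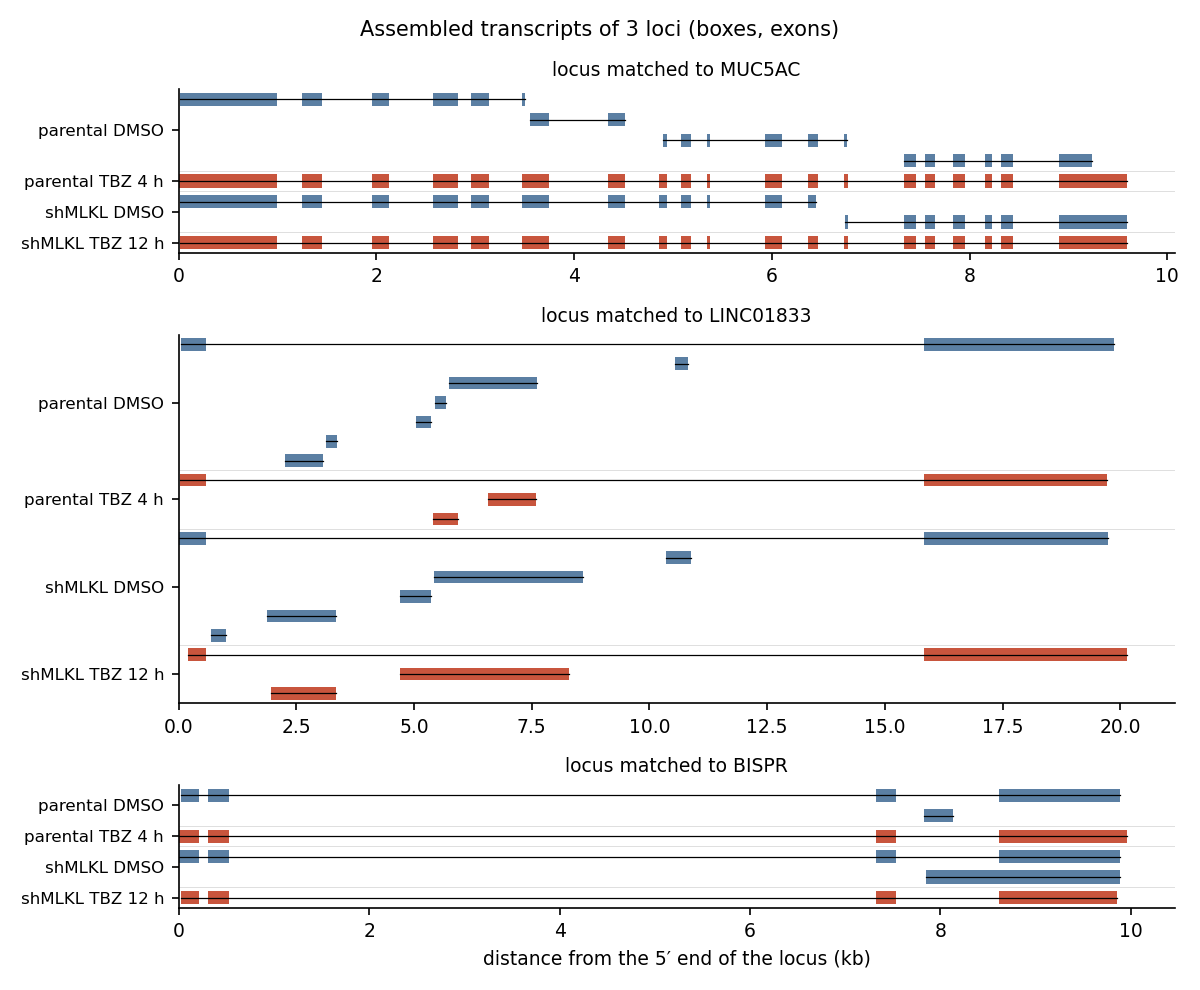
Assembled transcripts in each library at the loci matched to MUC5AC, LINC01833 and BISPR; boxes are exons, lines join the exons of 1 transcript, and the horizontal axis is the distance in kb from the 5′ end of the locus (blue, DMSO; red, TBZ). At MUC5AC the TBZ libraries have 1 transcript of 19 exons, and parental DMSO has 4 fragments.

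In the second experiment MUC5AC was a measured gene, of which the locus held only a 3′ part. Those libraries had no part in the choice of loci. The gene stood at 3.34 and 3.42 FPKM in shGFP DMSO and at 13.9 and 15.6 FPKM in shGFP TBZ 5 h. In shMLKL cells it stood at 2.95 and 3.34 FPKM with DMSO and at 7.13 and 6.85 FPKM with TBZ 5 h. No TBZ library overlapped a DMSO library of its line. MUC5AC rose with TBZ by 1.85 ± 0.076 (SE, n = 2 libraries a group) in shGFP cells, with an adjusted p of 1.1e-06 in limma on log2(FPKM + 1), and by 0.95 ± 0.076 in shMLKL cells, with an adjusted p of 7.2e-05 in limma. Whether the 2 libraries of a group were grown as separate cultures is not in the labels, and these p-values measure only the spread between libraries.

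Most loci were short and single-exon, and most had members from only 1 library. The median width was 892 bp (quartiles 479 and 2178 bp), and 2033 of 2301 loci had no intron. Members came from 1 library at 1392 loci, from 2 at 445, from 3 at 253 and from all 4 at 211. Transcripts below the minimums filled in part of the gaps, so that 613 loci (26.6%) had an FPKM above 0 in all 4 libraries. At 752 loci an assembled transcript of some library ran on into a RefSeq gene, which took its FPKM out of the sum there. Of the 635 introns 247 (38.9%) were assembled in more than 1 library, and the share was 39.5% at loci with a GENCODE match and 38.5% at those without.

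**Figure D2:**
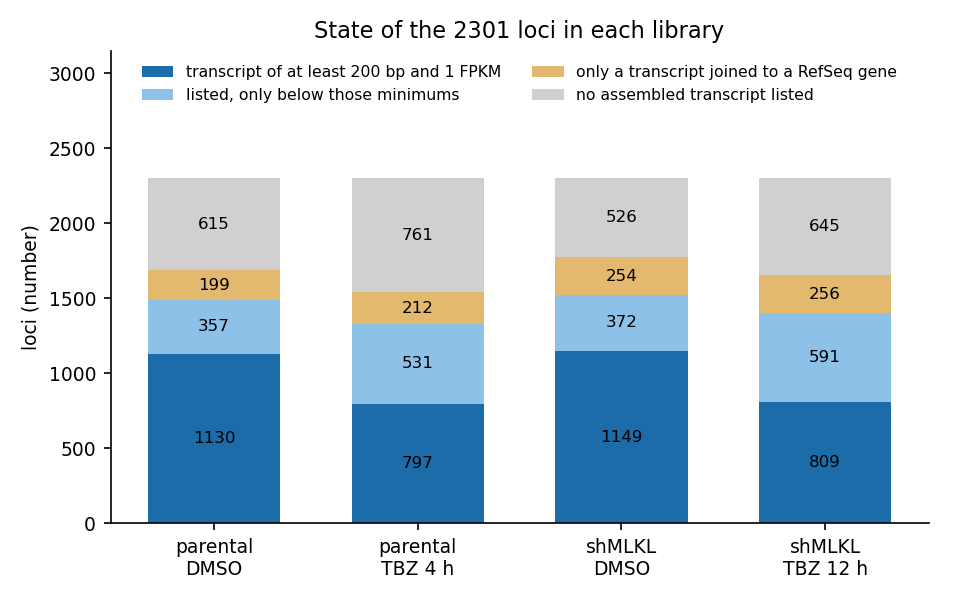
Number of the 2301 loci in each state, stacked by library: with a member, listed only below the minimums, covered only by a transcript joined to a RefSeq gene, or with no assembled transcript. Both DMSO libraries held members at more loci (1130 and 1149) than the TBZ libraries (797 and 809), and the TBZ libraries held more loci listed below the minimums (531 and 591, against 357 and 372).

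The median FPKM sum over all loci was lower with TBZ, as was the number of members. The median FPKM sum over the 2301 loci was 1.02 in parental DMSO, 0.616 in parental TBZ 4 h, 1.03 in shMLKL DMSO and 0.684 in shMLKL TBZ 12 h. Loci were selected by the FPKM minimum of their members, so these medians do not show lower levels apart from the member counts. Among members themselves, all above that minimum, the median FPKM was 1.48 in parental DMSO and 1.54 in parental TBZ 4 h. Both shMLKL libraries lay between these values. Members were 30.9% of the transcripts of at least 200 bp outside RefSeq genes in parental DMSO, and 23.4%, 22.9% and 19.9% in the other 3 libraries in the same order. By that share shMLKL DMSO lay with the TBZ libraries, since it listed more such transcripts in all (5675, against 4413, 3980 and 4751). Relative depth was lowest in parental DMSO and highest in shMLKL TBZ 12 h, and its part in these counts was not tested.

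The loci lay close to annotated genes. The median distance to the nearest RefSeq gene was 2266 bp (quartiles 628 and 7378 bp). Within 5 kb downstream of a gene and on its strand, where RNA polymerase continues past a gene's end, lay 876 loci (38.1%), at a median distance of 1284 bp, and 26 of them were spliced. Upstream within 5 kb on the opposite strand, the place of promoters read in both directions, lay 281 loci (12.2%), at a median of 516 bp, of which 59 were spliced. Over 5 kb away lay 505 loci on the strand of the nearest gene, 94 of them spliced, and 223 on the other strand, 54 of them spliced. Newer annotation lists genes in part of this space. Of 2037 loci whose flanking genes could be placed in current RefSeq (GRCh38.p14), 1042 had between the flanks a gene that the deposited lists lack. Such a gene could be of any type, and its position and strand were not compared with those of the locus. The 1042 are thus not loci known to be annotated now, and the share over all gaps between genes was not counted.

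**Figure D3:**
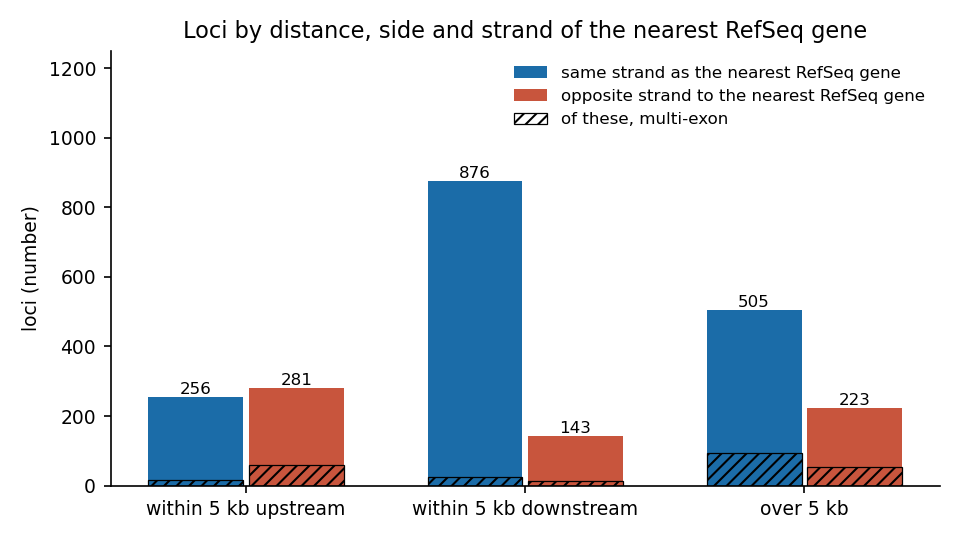
Number of loci within 5 kb upstream, within 5 kb downstream, and over 5 kb from the nearest RefSeq gene, by strand relative to that gene; hatching marks spliced loci. The tallest bar is the same-strand downstream group of 876 loci, and 16 loci with members on both strands and 1 with no strand are not drawn.

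For TBZ 4 h against DMSO in parental cells, 358 loci (15.6%) were at least 2-fold higher and 548 (23.8%) at least 2-fold lower on log2(FPKM + 1). Over 11023 RefSeq genes with at least 1 FPKM in a library the shares were 9.04% higher and 13.2% lower. Most of the locus counts came from loci listed at 0 in the lower library, 327 of the 358 and 451 of the 548. Among the 782 loci above 0 in both libraries, with no transcript under 200 bp and none joined to a RefSeq gene, 21 (2.69%) were higher and 84 (10.7%) lower, and RefSeq genes above 0 in both gave 6.63% and 9.66%. Of the calls 39.5% were thus higher over all loci, and 20.0% over the loci listed in both. The median difference of the 782 loci was -0.27, and that of all RefSeq genes was -0.21. With length-weighted FPKM the counts among the 782 were 12 higher and 24 lower. With libraries scaled to an equal median of RefSeq genes, 389 of all loci were higher and 492 lower, so that 44.2% of the calls were higher. The loci named next for a TBZ or line difference were chosen after their values were seen, from those at least 2-fold apart by both measures, with Cufflinks intervals that did not overlap and at least 3 FPKM in the higher library: 5 higher and 11 lower with TBZ 4 h, of 214 that could have met this.

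Among loci lower with TBZ 4 h was the one matched to LINC01833, a lincRNA beside SIX3-AS1, at chr2:45146405-45166551 on the minus strand. Its FPKM sums were 27.4 in parental DMSO, 6.44 in parental TBZ 4 h, 29.8 in shMLKL DMSO and 6.76 in shMLKL TBZ 12 h, and the length-weighted values were 3.94, 1.39, 6.01 and 2.10. Both TBZ libraries lay below both DMSO libraries on either scale. The sum is the larger because single-exon fragments lay inside the 15243 bp intron of the spliced transcript, as the exon maps show.

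A single-exon locus 762 bp downstream of ZBED3, on its strand at chr5:76369310-76371770, stood at 11.9, 4.73, 20.5 and 6.64 FPKM in the same order. Here too both TBZ libraries were below both DMSO libraries. It was 1 transcript in every library, so adding fragments did not enter. In the second experiment the ZBED3 gene, a zinc finger protein gene, fell by 0.69 with TBZ in shGFP cells (limma adjusted p = 0.0103), and its value in shMLKL cells was -0.12 (limma adjusted p = 0.61).

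The antisense locus matched to SLC12A9-AS1, at chr7:100426843-100450247 on the minus strand, began 94 bp upstream of SLC12A9, which encodes a membrane protein of the cation chloride cotransporter family. Its sums were 5.88, 1.01, 1.45 and 0.556 FPKM, and its length-weighted values 1.77, 0.260, 1.199 and 0.385. Parental DMSO was the highest library on both scales. The sum of shMLKL DMSO was nearer to parental TBZ 4 h than to parental DMSO, and the length-weighted value was nearer to parental DMSO.

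Also lower with TBZ 4 h were a locus 294 bp downstream of PLAC8, at 5.18, 0.497, 1.56 and 1.84 FPKM (length-weighted 1.74, 0.121, 0.619 and 0.417), and a locus matched by 1 of 2 introns to ZNF888, a zinc finger gene of a chromosome 19 cluster, at 17.3, 4.73, 8.49 and 8.75 FPKM. In both, parental DMSO was well above the other 3 libraries. Genes of this cluster resemble each other closely, so reads at the ZNF888 locus may be shared with its relatives. PLAC8, the annotated neighbour, fell in the second experiment by 0.90 in shGFP cells (limma adjusted p = 4.4e-05) and by 0.58 in shMLKL cells (limma adjusted p = 7.0e-04). A locus 1802 bp upstream of HOXB9, a homeobox gene, stood at 3.14 and 0.663 FPKM (length-weighted 2.35 and 0.210) in the parental libraries and was listed at 0 in both shMLKL libraries.

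Higher with TBZ 4 h was a 373 bp locus that began 109 bp upstream of TRIM25 on the opposite strand, at chr17:54991518-54991890. TRIM25 encodes a ubiquitin ligase of the RIG-I antiviral pathway. The locus stood at 4.76 FPKM in parental DMSO, 30.8 in parental TBZ 4 h and 5.15 in shMLKL DMSO, and it was listed at 0 in shMLKL TBZ 12 h. Only parental TBZ 4 h was high. TRIM25 itself stood at 68.5, 164, 58.2 and 128 FPKM, and in the second experiment it rose by 1.05 in shGFP cells (limma adjusted p = 3.6e-07) and by 1.10 in shMLKL cells (limma adjusted p = 7.7e-07). A locus 1907 bp downstream of H2BC5, a histone H2B gene, stood at 1.46, 9.49, 0.652 and 1.45 FPKM (length-weighted 0.288, 3.05, 0.310 and 1.37), and one 3665 bp upstream of H1-6, a histone H1 gene, at 4.24, 10.6, 1.24 and 2.19 FPKM (length-weighted 1.96, 5.40, 0.840 and 2.14). Parental TBZ 4 h was the highest library at both histone loci. H2BC5 was at 0.22 with TBZ in shGFP cells of the second experiment (limma adjusted p = 0.25).

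**Figure D4:**
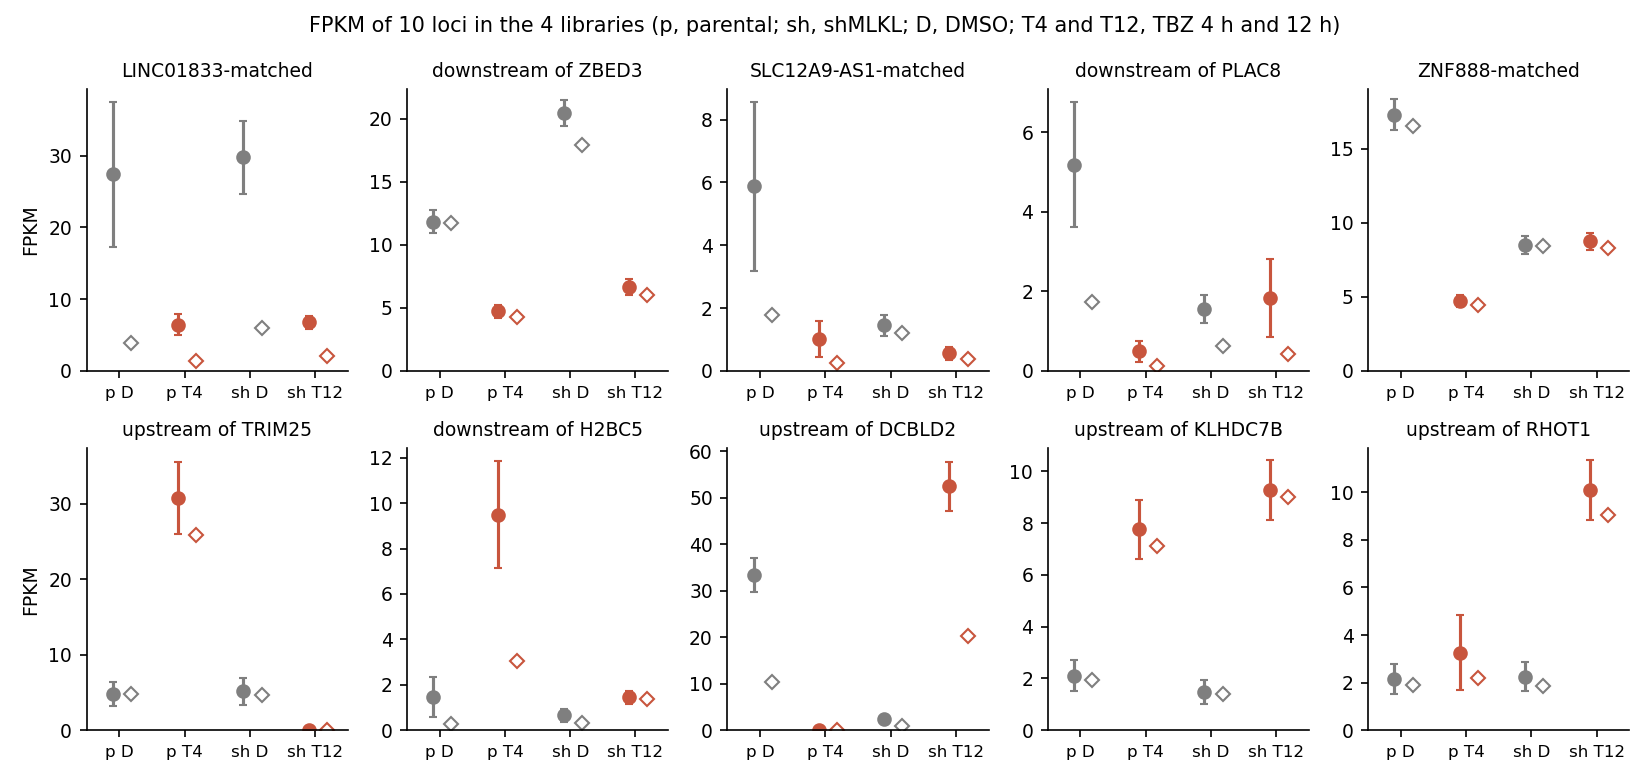
FPKM of 10 loci in the 4 libraries; filled points are FPKM sums with the sum of the deposited Cufflinks intervals, open diamonds are length-weighted FPKM, grey is DMSO and red is TBZ, and each panel has its own linear axis from 0. LINC01833 and the ZBED3 locus are lower in both TBZ libraries than in both DMSO libraries, and the TRIM25 locus is high only in parental TBZ 4 h.

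For TBZ 12 h against DMSO in shMLKL cells, 333 loci (14.5%) were at least 2-fold higher and 452 (19.6%) lower, beside 9.20% and 10.8% of RefSeq genes. Of these, 290 and 399 were listed at 0 in the lower library. Among the 864 loci listed in both libraries with none short or joined, 29 (3.36%) were higher and 40 (4.63%) lower, beside 6.37% and 7.13% of RefSeq genes above 0 in both. With length-weighted FPKM 12 of the 864 were higher and 15 lower. The median difference of the 864 loci was -0.20, beside -0.12 for all RefSeq genes. By the stricter choice described above, 7 loci were higher and 9 lower, of 193 that could have met it.

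One of these, named also by the planned rule, was a locus of 3 exons 79274 bp upstream of DCBLD2, on the opposite strand at chr3:98699807-98717680. It stood at 33.4 FPKM in parental DMSO, was listed at 0 in parental TBZ 4 h, and stood at 2.4 in shMLKL DMSO and 52.5 in shMLKL TBZ 12 h (length-weighted 10.3, 0, 0.819 and 20.3). The DMSO libraries of the 2 lines thus lay far apart, and TBZ went with a lower value in one line and a higher value in the other. DCBLD2 stood at 112, 318, 43.7 and 49.99 FPKM, highest in the library where the locus was listed at 0.

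A 308 bp locus 248 bp upstream of GSTA4, at chr6:52860426-52860733 on the plus strand, stood at 25.4, 12.9, 9.05 and 53.6 FPKM. Current RefSeq lists 1 gene between GSTA4 and CILK1, RN7SK, and GENCODE 29 gives it on the plus strand with a length of 328 bp. RN7SK is the small nuclear RNA that holds the elongation factor P-TEFb inactive, and it is made by RNA polymerase III without a poly-A tail. A 323 bp locus between NEMF and ARF6 stood at 70.7, 39.6, 37.2 and 109 FPKM, and current RefSeq places RN7SL2 and RN7SL3, copies of the RNA of the signal recognition particle, of 300 and 299 bp in GENCODE 29 on the same minus strand, in that interval. Both loci were highest in shMLKL TBZ 12 h and next highest in parental DMSO. The libraries were poly-A selected, and how much RNA without a tail each kept was not tested. RN7SL has many near-identical copies, so the reads of that locus cannot be assigned to 1 copy.

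A 2-exon locus 2868 bp upstream of KLHDC7B, on the opposite strand at chr22:50980762-50983594, stood at 2.11, 7.76, 1.48 and 9.28 FPKM. Both TBZ libraries were above both DMSO libraries, and in parental TBZ 4 h a further transcript joined to a RefSeq gene is not in the sum. Its neighbour KLHDC7B stood at 1.25, 0.625, 0.401 and 0 FPKM. A 2-exon locus 12846 bp upstream of RHOT1, a gene of mitochondrial transport, stood at 2.15, 3.26, 2.25 and 10.1 FPKM, so that only shMLKL TBZ 12 h was high.

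Lower with TBZ 12 h was the locus matched to LINC02086, a lincRNA beside PRAC1 matched by 4 of 7 introns, at chr17:46750472-46784694 on the plus strand. Its sums were 3.46, 3.92, 9.79 and 1.61 FPKM and its length-weighted values 0.109, 0.958, 2.47 and 0.204. shMLKL DMSO was the highest library on both scales. A locus 703 bp downstream of PCCB, which encodes a subunit of propionyl-CoA carboxylase, stood at 3.21, 3.19, 8.30 and 0.937 FPKM (length-weighted 3.05, 1.91, 3.46 and 0.906), and shMLKL TBZ 12 h was lowest.

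The 2 TBZ comparisons differ in line and in time and share no library, so their values stand side by side without a test. Of the loci higher by 2-fold, 48 were higher in both comparisons, which is 13.4% of those with TBZ 4 h and 14.4% of those with TBZ 12 h. In the same way 79 were lower in both, 14.4% and 17.5%. Over all loci 14.5% were higher and 19.6% lower with TBZ 12 h, and 15.6% higher and 23.8% lower with TBZ 4 h. All 4 shares of overlap were below these. Members came from 1 library at 1392 loci, and a locus listed in only 1 library can be called in only 1 TBZ comparison. The rule thus lowers the overlap, and these shares, alone or beside those of RefSeq genes, do not show whether the comparisons agree. A further 37 loci were higher with TBZ 4 h and lower with TBZ 12 h, and 49 were lower with TBZ 4 h and higher with TBZ 12 h. RefSeq genes gave 327 higher in both (32.8% and 32.2%) and 323 lower in both (22.2% and 27.2%). A subset of 485 loci was listed in all 4 libraries with none short or joined, and of these 2 were higher and 8 lower in both comparisons. Across the 485 loci the Spearman correlation of FPKM sums was 0.702 between the 2 DMSO libraries and 0.565 to 0.635 for the other pairs, a description over loci that share libraries.

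**Figure D5:**
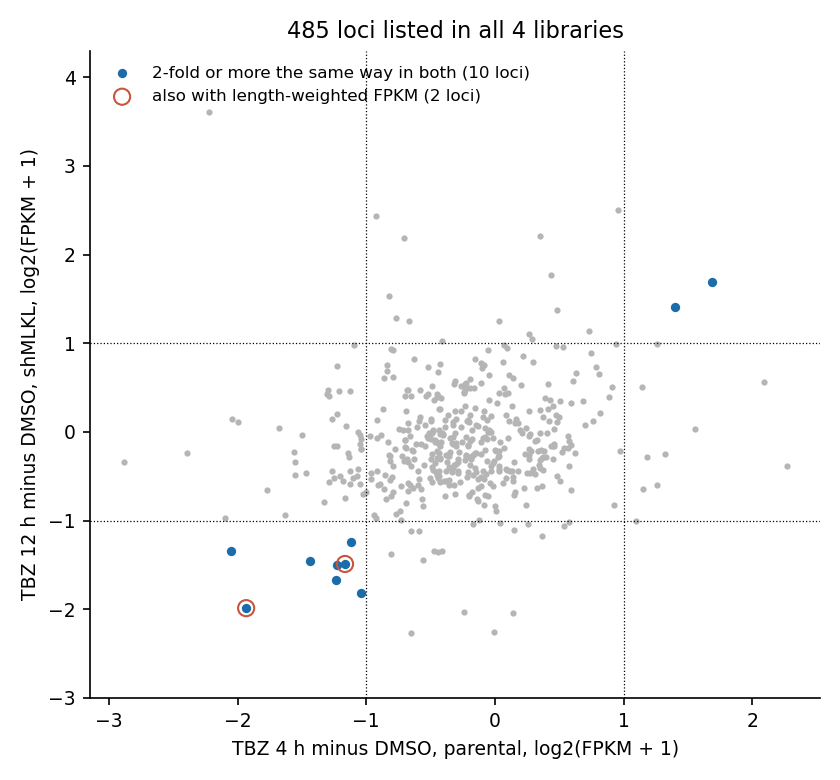
Difference in log2(FPKM + 1) for TBZ 4 h minus DMSO in parental cells (horizontal) and TBZ 12 h minus DMSO in shMLKL cells (vertical) for the 485 loci listed in all 4 libraries; dotted lines mark 2-fold. Of the 10 loci beyond 2-fold the same way in both, 8 are lower, and the circled pair, LINC01833 and the ZBED3 locus, are also beyond 2-fold in both with length-weighted FPKM.

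Both loci that were higher in both comparisons lost this with length-weighted FPKM. One was matched by 2 of 3 introns to GASAL1, 14777 bp downstream of AZIN1, at 0.853, 4.96, 0.657 and 4.36 FPKM (length-weighted 0.426, 3.44, 0.254 and 1.45), where both TBZ libraries stayed above both DMSO libraries. The other belonged to a run of 18 loci upstream of LOC101928381 on chromosome 9, all on its strand, the largest number beside any gene. This locus, at chr9:69794048-69795383, stood at 1.27, 5.00, 1.67 and 6.08 FPKM, and its length-weighted values were 1.24, 1.85, 1.67 and 1.57. The widest of the run, with 2 exons over 60748 bp, stood at 10.6, 9.72, 16.0 and 28.0 FPKM (length-weighted 1.38, 0.525, 1.82 and 2.68). A neighbour of 4143 bp stood at 2.79, 3.83, 1.86 and 12.2 FPKM (length-weighted 1.32, 1.69, 1.68 and 2.45). One of 5924 bp stood at 1.62, 4.09, 1.09 and 10.8 FPKM (length-weighted 0.591, 0.378, 1.08 and 1.43). shMLKL TBZ 12 h was the highest library at these 3 on both scales, with a smaller gap to shMLKL DMSO on the length-weighted scale. At the 5924 bp locus parental TBZ 4 h was above parental DMSO by the sum and below it by the length-weighted value. Crowding was common, since 1115 loci (48.5%) had another within 10 kb, and 31 genes were nearest to at least 5 loci.

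For shMLKL against parental cells under DMSO, 409 loci (17.8%) were higher and 414 (17.99%) lower, beside 6.95% and 6.36% of RefSeq genes. This comparison shares its parental library with TBZ 4 h and its shMLKL library with TBZ 12 h. Of these loci 381 and 366 were listed at 0 in the lower library. Among 917 loci listed in both with none short or joined, 17 (1.85%) were higher and 39 (4.25%) lower, beside 3.70% and 3.07% of RefSeq genes above 0 in both, so the share of calls that were higher went from 49.7% to 30.4%. The locus matched to AC078923.1, a lincRNA 41416 bp downstream of PHLDA1, by 3 of 13 introns, stood at 6.65, 2.82, 0.853 and 0 FPKM (length-weighted 1.68, 0.815, 0.101 and 0), with both shMLKL libraries below both parental ones. A 367 bp locus near LOC100288162 at chr16:15012440-15012806 stood at 6.26, 9.80, 30.0 and 22.8 FPKM, with both shMLKL libraries above both parental ones.

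Not every matched locus passed 2-fold, and the one at BISPR passed it in no comparison. The locus matched by all 3 introns to BISPR, a lincRNA that starts 124 bp from BST2 on the other strand and is known to raise BST2, an interferon-induced membrane protein that tethers viruses, stood at 18.5, 11.9, 17.7 and 19.4 FPKM (length-weighted 10.4, 8.54, 12.3 and 12.99). Its lowest value was in parental TBZ 4 h. BST2 stood at 155, 133, 208 and 376 FPKM. In the second experiment BST2 fell by 0.27 in shGFP cells (limma adjusted p = 0.0205) and was at 0.02 in shMLKL cells (limma adjusted p = 0.89). The locus matched to ERVK3-1, a gene derived from an endogenous retrovirus, 9295 bp downstream of ZNF8, stood at 39.5 and 96.3 FPKM in parental DMSO and shMLKL TBZ 12 h. In parental TBZ 4 h and shMLKL DMSO, at 70.1 and 43.7 FPKM, a part of it was joined to a RefSeq gene and is missing from the sum. Its length-weighted values were 36.4, 23.9, 16.9 and 53.3 FPKM. On both scales shMLKL TBZ 12 h was more than 2-fold above shMLKL DMSO, where that part is missing.

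Some spliced loci were listed in 1 library alone: 8 reached at least 5 FPKM in that library, with no transcript under 200 bp and none joined to a RefSeq gene in any library. The locus matched by 1 of 3 introns to AC068282.1, a lincRNA 19722 bp upstream of PROC, the gene of protein C, stood at 8.63 FPKM (length-weighted 4.53) in parental TBZ 4 h and was listed at 0 in the other 3. A 4-exon locus 112377 bp upstream of MTAP at chr9:21683201-21690258 stood at 10.9 FPKM (length-weighted 2.45) in parental TBZ 4 h, and a 2-exon locus 24328 bp upstream of NTMT1 at 5.76 FPKM (length-weighted 1.98) in shMLKL TBZ 12 h, both listed at 0 elsewhere. These loci have no replicate library.

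Loci next to inflammatory and immediate early genes were counted apart. Of a list of 90 such genes 17 had a locus nearest to them, 19 loci in all. Over all loci 1619 genes were nearest to a locus, beside 11023 RefSeq genes with at least 1 FPKM in a library. Some nearest genes are not among those 11023, so the 17 are not read as many or few. With TBZ 4 h 5 of the 19 were higher and 5 lower, beside 15.6% and 23.8% of all loci, with a median difference of 0.015 against -0.095 over all loci, and with TBZ 12 h 4 were higher and 1 lower, beside 14.5% and 19.6% of all loci, with medians of 0 for both. A locus 123 bp downstream of IRF1, an interferon regulatory factor, was listed at 0 in both DMSO libraries and stood at 1.68 and 1.90 FPKM (length-weighted 1.68 and 0.637) in the TBZ libraries. IRF1 stood at 24.4, 90.5, 17.6 and 102 FPKM, highest in the same 2 libraries. Upstream of IL32, a cytokine gene, a locus was listed at 0 in the DMSO libraries and stood at 1.59 and 0.579 FPKM (length-weighted 0.960 and 0.569) with TBZ, while IL32 stood at 1.84, 40.4, 0.642 and 37.5 FPKM. PPP1R15A, the stress-induced subunit of an eIF2alpha phosphatase, went the other way from its locus: the gene stood at 99.5, 742, 69.8 and 156 FPKM, and the locus 1105 bp downstream at 1.74 and 0.682 FPKM with DMSO and listed at 0 with TBZ. A locus 19776 bp upstream of MCL1, an anti-apoptotic BCL2 family gene, stood at 3.87, 1.99, 2.60 and 15.4 FPKM, but its length-weighted values were 1.40, 1.76, 2.00 and 2.63.

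In the second experiment IRF1, IL32, PPP1R15A and MCL1 each rose with TBZ in shGFP cells by limma on log2(FPKM + 1). The rises were 2.35 for IRF1, 2.91 for IL32, 2.54 for PPP1R15A and 1.97 for MCL1. All 4 also rose in shMLKL cells, by 2.16, 3.24, 0.85 and 0.59, and the largest of the 8 limma adjusted p-values was 2.65e-05.

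Annotated genes nearest to loci could be set beside that experiment more broadly. Of 10364 genes tested, 19.1% rose and 37.3% fell with TBZ in shGFP cells, and 20.0% rose and 17.6% fell in shMLKL cells, at a limma adjusted p under 0.05. Genes nearest to loci higher with TBZ 4 h in parental cells rose in 68 and fell in 74 of 218 cases in shGFP cells (31.2% and 33.9%), and those nearest to loci lower with TBZ 4 h in 71 and 132 of 342 (20.8% and 38.6%). Over all loci the counts were 254 and 417 of 1121 genes (22.7% and 37.2%). In shMLKL cells genes nearest to loci higher with TBZ 12 h rose in 53 and fell in 38 of 200 cases (26.5% and 19.0%), and those nearest to loci lower with TBZ 12 h in 38 and 69 of 274 (13.9% and 25.2%), beside 254 and 233 of 1121 over all loci (22.7% and 20.8%). The share that rose was thus larger beside higher loci than beside lower ones in both lines, and the difference between these shares was not tested. Without replicate 1 of shMLKL DMSO the 38 genes that rose beside lower loci became 24.

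The loci with the highest levels and the largest differences by the planned rule were mostly those whose values hang on single entries. Of 38 loci that the rule named, 11 took FPKM from a transcript under 200 bp in some library and 15 were joined to a RefSeq gene in some library, 26 in all with either. The highest mean belonged to a 939 bp locus at chr21:9826646-9827584, at 1114, 845 and 604 FPKM and listed at 0 in shMLKL TBZ 12 h, where its transcript was joined to a RefSeq entry. A 215 bp locus 21284 bp upstream of RBFA stood at 1633 and 711 FPKM in the DMSO libraries and at 6.13 and 10.6 FPKM with TBZ (length-weighted 677, 308, 6.04 and 10.2). The DMSO values there came from entries under 200 bp, and without such entries both directions turned. A locus of 690 bp beside OASL, an interferon-induced gene, was listed at 25.6 FPKM in shMLKL TBZ 12 h and at 0 in the others, with a joined transcript in parental TBZ 4 h.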

How the data were processed

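Stranded poly-A RNA libraries were sequenced as 100 nt paired-end reads. The genome build was hg19, per the submitters' processing notes, which also name Cufflinks 2.2.1, TopHat2 2.0.13, GATK and STAR 2.4.0f1, with no role or order. The authors deposited Cufflinks transcript lists with FPKM for the 4 libraries of the first experiment, and 1 table for the 8 of the second, whose unit was taken as FPKM from its values. No table held read counts. The members, gene lists and rules were chosen with earlier results of these data known.

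FPKM of all assembled transcripts overlapping a locus, outside RefSeq, were summed per library and compared on log2(FPKM + 1), computed from the deposited FPKM. With 1 library a group, called means at least 2-fold and there is no test. Named by rule were the 8 highest loci by mean, the 6 largest rises and falls of each comparison among loci with at least 5 FPKM, the 5 highest spliced loci and the 5 largest changes beside listed genes. Further loci were added after values were seen.

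For the second experiment 1 limma model (3.58.1, R 4.3.3) covered all 8 libraries (4 groups, trend, 10364 genes whose mean reached 1 FPKM in some group, Benjamini-Hochberg, two-sided, 4 residual degrees of freedom). On simulated data for TBZ in shGFP cells it recovered 94.4% of genes changed by a log2 of 1 and 98.2% of those changed by 2, with 4.68% false calls. Groups came from sample titles. To see whether replicate numbers pair samples, the group mean was taken off the log2 values of each gene. What remained correlated at -0.066 to 0.028 between libraries of different groups with the same replicate number. Tables used Python 3.11.15.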

Additional observations from a re-analysis of the deposited data

Results flagged for a closer look

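The effect of TBZ on 11 of 51 genes tested in the second experiment (the nearest genes of named loci, and MUC5AC) differed between shMLKL and shGFP cells by the interaction term of the limma fit, at an adjusted p under 0.05 over all 10364 genes. The values are the shMLKL effect minus the shGFP effect on log2(FPKM + 1). It was -1.69 for LIF, -1.69 for PPP1R15A, -1.39 for MCL1 and -1.05 for PHLDA1, which all rose with TBZ in shGFP cells. MUC5AC had -0.90, with a limma adjusted p of 0.0015, and the effect was positive in both lines. REL had -0.38, TAF13 -0.31 and SFPQ -0.26, each smaller in shMLKL cells and positive in both lines. EPHB4 had 0.44 and MYC 0.22, and both fell less in shMLKL cells. PCCB had 0.27, falling by 0.20 in shGFP cells and standing at 0.07 in shMLKL cells.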

How the results depend on the processing

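Each group of the first experiment has 1 library, the depth is known only in relative terms, and an FPKM of 0 can mean that Cufflinks joined or split a transcript. The number of loci was 776 at a minimum of 2 FPKM, 5940 at 0.5 FPKM and 736 at 5 kb or more from RefSeq. Counts of loci higher and lower were, for TBZ 4 h, TBZ 12 h and shMLKL against parental: 111/147, 110/133 and 126/93 at 5 kb or more, 147/200, 132/167 and 148/163 at 2 FPKM, 224/345, 197/282 and 256/225 without joined loci, 31/97, 43/53 and 28/48 above 0 in both libraries, 21/84, 29/40 and 17/39 with none short or joined, and 12/24, 12/15 and 5/11 with these length-weighted. Over all loci length-weighting gave 337 lower with TBZ 4 h and 219 higher with TBZ 12 h; 760 were lower with TBZ 12 h counting members only and 684 with a pseudocount of 0.1. Alternatives on listing, short entries and weighting were added after seeing the data. In the rest of this paragraph a gene name stands for the locus nearest or matched to that gene, not for the gene itself. Directions turned without transcripts under 200 bp, and with members only, at RBFA (2.83 at 4 h, 3.53 at 12 h), MIR1297 (2.82), UBR1 (-1.56), CYBRD1 (2.59), MUC13 (-1.71) and CALCOCO2 (-1.18 and -1.86) for TBZ 12 h, and at PIK3AP1 (-2.20), MUC13 (1.71) and LINC01203 (-3.26) for shMLKL against parental. Among named differences of at least 2-fold, those of the TAF13 (0.042) and MUC5AC (0.55) loci for TBZ 4 h turned with length-weighted FPKM. Smaller named differences turned too, among them ERVK3-1 (-0.59) and MCL1 (0.20) for TBZ 4 h, SFPQ (-2.60) for TBZ 12 h and ERVK3-1 (-1.07) for shMLKL against parental. The cause was not tested.

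For genes of the second experiment nearest to loci higher and lower with TBZ 4 h, leaving out 1 library in turn gave 63 to 69 and 52 to 72 that rose and 57 to 73 and 102 to 131 that fell in shGFP cells. For loci higher and lower with TBZ 12 h it gave 40 to 50 and 24 to 37 that rose and 26 to 35 and 51 to 68 that fell in shMLKL cells. The group left with 1 library is then assumed to vary like the others. With the replicate block, whose numbers do not pair the samples, the same counts were 67, 70, 72 and 129, and 52, 37, 35 and 68.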
